A study of Mus musculus with 6 samples.

Results

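The receptors for the neurotrophins and for the ligands of the GDNF family were examined in sciatic nerve libraries of postnatal day 3 mice, with 3 control and 3 Dok6 mutant mice and one library per mouse. The 8 genes were chosen by symbol, as the Trk, p75, Ret and GFRα receptors that lie upstream of the Dok adaptor proteins, and they are 8 of the 54532 genes in the count table. They are Ntrk2, Ntrk3 and Ngfr of the neurotrophin receptors, Ret, and its coreceptors Gfra1, Gfra2, Gfra3 and Gfra4. Control mice carried the WT genotype, and the mutants are labelled Dok6 KO. The study's methods describe a line on a C57BL/6 background in which exon 3 of Dok6 is removed by EIIA-cre, which is active in the early fertilized egg, so that the deletion is not limited to one cell type. Sexes were not separated, and no treatment apart from the genotype is given in the labels.

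The Trk receptors are receptor tyrosine kinases. TrkB and TrkC, the products of Ntrk2 and Ntrk3, bind BDNF and neurotrophin 3 respectively, and the p75 receptor, the product of Ngfr, binds all of the neurotrophins and lacks a kinase. Ret is the shared kinase of the GDNF family receptors and is engaged through GFRα coreceptors that are anchored in the membrane by a lipid, GFRα1 for GDNF, GFRα2 for neurturin, GFRα3 for artemin and GFRα4 for persephin. In peripheral sensory neurons these receptors mark classes of cells, with GFRα3 in nociceptors, TrkC in proprioceptors and TrkB in touch neurons. Ret occurs both in touch neurons and in nonpeptidergic nociceptors, and Ngfr is also a gene of immature Schwann cells.

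Of the 8 receptor genes, 2 were called higher in the Dok6 mutant libraries and none was called lower. These were Gfra3, with a log2 fold change of 2.94 (standard error 0.51), and Ngfr, with one of 1.35 (standard error 0.33). Ntrk2 and Gfra2 had log2 fold changes of 0.01 and -0.00, and the other 4 receptor genes lay between -0.26 and 0.29 without being called. A gene was called where the Benjamini-Hochberg adjusted p of edgeR's quasi-likelihood test, taken over the 17099 genes tested, was under 0.05. Among all genes tested, 14.6% were called, 8.62% as higher and 6.01% as lower. The median log2 fold change of the 8 receptor genes was 0.15, against 0.01 for all genes tested. None of the members was filtered out for low counts, and at an unadjusted p under 0.05 the edgeR test had 3 members higher and 1 lower, while DESeq2 and limma voom, like edgeR, called 2 higher and 0 lower.

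The libraries held between 17699904 and 18678170 counts, so that the smallest level taken as detectable, 3 counts, came to 0.156 to 0.172 CPM, counts relative to the library total after TMM scaling. This floor covers counting error only. For the targeted gene, Dok6, control mice 1, 2 and 3 had 17.8, 11.9 and 17.5 CPM and mutant mice 1, 2 and 3 had 7.26, 5.78 and 7.15. The genotypes did not overlap, and edgeR's quasi-likelihood test gave a log2 fold change of -1.23 ± 0.20 (standard error) with an adjusted p of 0.0118. The count covers the whole gene, including exons outside the deletion, and the length deposited for Dok6, 5146 bases, is shorter than the 13804 exonic bases of GENCODE M21. The libraries carried much of the defining genes of central neurons and glia. All 12 central neuron markers reached 1 CPM in each of the 6 libraries, and their summed level ranged from 1255 to 1427 CPM in control and from 1043 to 1149 CPM in mutant libraries. The 12 central glia markers summed to between 1866 and 3580 CPM over the 6 libraries. The results are given for libraries labelled sciatic nerve, and in bulk tissue fewer cells of a type and less RNA per cell cannot be told apart.

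**Figure D1:**
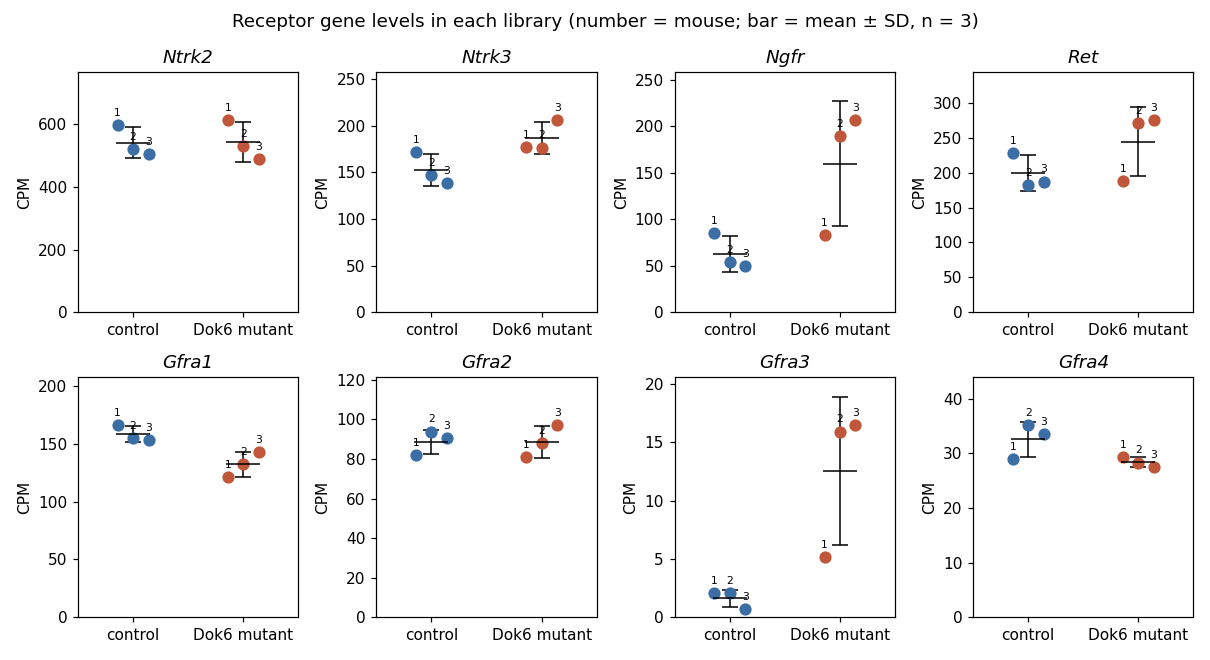
Level of each receptor gene in CPM (vertical axes, starting at 0) in the 3 control (blue) and 3 Dok6 mutant (red) libraries, 1 point per mouse with its number, and the mean ± SD. Gfra3 was at 5.19 CPM or more in the mutants and at 2.07 or less in the controls, and Ngfr of mutant mouse 1 lay within the control range.

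Among the neurotrophin receptors, Ngfr was the one called. Ngfr (ENSMUSG00000000120) is a chromosome 11 gene of the minus strand (GRCm38, 95568818 to 95587735). It was at 85.2, 53.6 and 49.6 CPM in control mice 1, 2 and 3. The levels were 82.8, 189 and 207 CPM in mutant mice 1, 2 and 3. Mutant mice 2 and 3 were above every control, whereas mutant mouse 1 was at the level of control mouse 1, so the genotypes overlapped. The means were 62.8 ± 19.5 and 159.6 ± 67.0 CPM (SD, n = 3 mice), and the mutant libraries differed 2.49-fold among themselves. The adjusted p in edgeR's quasi-likelihood test was 0.0326, and the log2 fold change was not above 2, the threshold of the study's methods, which only 1.08% of all genes tested passed as higher. The call did not hold without control mouse 2 (adjusted p = 0.136 in the same edgeR test), control mouse 3 (0.0857), mutant mouse 2 (0.0875) or mutant mouse 3 (0.0596). Nor did it hold with the mouse number as a block (adjusted p = 0.101 in the edgeR test).

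The promoter of Ngfr is shown because it was a called receptor gene with an entry in the RefSeq promoter table, which held 4 of the 8 members. The window covers 250 bases before and 50 after the start, at chr11:95587649-95587948 of GRCm38.p6 on the minus strand. Capitals mark GGGCGG and its reverse complement CCGCCC, the core of GC boxes, which the script sought on both strands.

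Ngfr: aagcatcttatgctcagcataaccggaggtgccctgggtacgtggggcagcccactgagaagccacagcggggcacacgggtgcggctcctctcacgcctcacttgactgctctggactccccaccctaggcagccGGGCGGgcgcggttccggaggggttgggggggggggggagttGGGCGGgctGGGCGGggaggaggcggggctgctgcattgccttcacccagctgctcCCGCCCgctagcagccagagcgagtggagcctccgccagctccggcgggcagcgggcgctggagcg

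This window had 4 matches, 23 CpG pairs and 71.7% G and C, while 35.7% of all 32851 promoter windows of the same length had a match and their median G and C content was 52.7%. The Ntrk2 window had 1 match and those of Gfra1 and Gfra4 had none. A match describes the letters of the window and is not a measured binding site.

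Ntrk2, which encodes TrkB, was the receptor gene with the most counts. It was at 598, 522 and 505 CPM in control mice 1, 2 and 3 and at 614, 530 and 489.5 in mutant mice 1, 2 and 3. Both genotypes spanned the same range, and the means of 542 ± 49.7 and 545 ± 63.7 CPM (SD, n = 3 mice) differed by less than the spread between mice. In edgeR's quasi-likelihood test the adjusted p was 0.969 for a log2 fold change of 0.01 ± 0.11 (standard error), and the sign turned with DESeq2 and with RLE scaling. Ntrk2 lies on chromosome 13 of GRCm38 from 58806569 to 59133970 and has 7 protein-coding transcripts in GENCODE M21. TrkB is known to occur with and without its kinase domain, and the count per gene adds all such forms.

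Ntrk3, which encodes TrkC, was at 171, 147 and 139 CPM in control mice 1, 2 and 3 and at 177, 177 and 206 in mutant mice 1, 2 and 3. Every mutant was above every control, as for 19.6% of all genes tested. The closest pair, control mouse 1 and mutant mouse 2, were 171 and 177 CPM. The log2 fold change of 0.29 (standard error 0.10) did not pass in edgeR's quasi-likelihood test (adjusted p = 0.0873), and it missed the threshold in each of the 13 alternative fits. Ntrk3 lies on chromosome 7 of GRCm38 from 78175959 to 78738012 and has 6 protein-coding transcripts in GENCODE M21. The DOK6 protein is known to bind TrkC and Ret.

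Ret was at 229, 182 and 187 CPM in control mice 1, 2 and 3 and at 188, 271 and 276 in mutant mice 1, 2 and 3. Mutant mice 2 and 3 were above every control and mutant mouse 1 was inside the control range, the same arrangement as for Ngfr. The means were 199.4 ± 25.4 and 245 ± 49.4 CPM (SD, n = 3 mice). In edgeR's quasi-likelihood test the log2 fold change was 0.29 ± 0.16 (standard error) and the adjusted p 0.220. This difference was within the spread between mice. Ret lies on chromosome 6 of GRCm38 from 118151745 to 118197718.

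The 4 coreceptors of Ret did not move together. Gfra3 (ENSMUSG00000024366), the artemin coreceptor, was the member with the lowest counts, 36, 36 and 13 in control mice 1, 2 and 3 and 100, 292 and 311 in mutant mice 1, 2 and 3. In CPM it was at 2.07, 2.06 and 0.743 in the controls and at 5.19, 15.9 and 16.5 in the mutants. Every mutant was above every control, and mutant mouse 1 lay between the controls and the other mutants. The means were 1.62 ± 0.763 and 12.5 ± 6.37 CPM (SD, n = 3 mice), with an adjusted p of 0.0135 in edgeR's quasi-likelihood test. Gfra3 was the one member past a log2 fold change of 2. Without control mouse 2 it was 3.15 with an adjusted p of 0.0727 in the edgeR test, and the call held in the other 12 alternative fits.

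Gfra1, the GDNF coreceptor, was at 166, 155 and 153 CPM in control mice 1, 2 and 3 and at 121, 132 and 143 in mutant mice 1, 2 and 3. Every mutant was below every control, as for 18.7% of all genes tested. The means were 158 ± 6.94 and 132 ± 10.9 CPM (SD, n = 3 mice). The log2 fold change of -0.26 (standard error 0.08) did not pass in edgeR's quasi-likelihood test (adjusted p = 0.0707), although it did without mutant mouse 3 (log2 fold change -0.32, adjusted p = 0.0376 in the same edgeR test). An annotated gene, Gm16277, overlaps exons of Gfra1 on the opposite strand, and it had no count in any library.

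Gfra2, the neurturin coreceptor, was at 81.9, 93.8 and 90.5 CPM in control mice 1, 2 and 3 and at 80.9, 88.0 and 97.1 in mutant mice 1, 2 and 3. The genotypes covered the same range, with an adjusted p of 0.992 in edgeR's quasi-likelihood test for a log2 fold change of -0.00 ± 0.09 (standard error), and the sign turned with a stricter filter on low counts. For Gfra4, the persephin coreceptor, control mice 1, 2 and 3 had 29.0, 35.1 and 33.6 CPM and mutant mice 1, 2 and 3 had 29.4, 28.3 and 27.5. Control mouse 1 lay among the mutants, and the means were 32.6 ± 3.20 and 28.4 ± 0.931 CPM (SD, n = 3 mice). The log2 fold change of -0.20 ± 0.10 (standard error) did not pass in edgeR's quasi-likelihood test (adjusted p = 0.220).

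**Figure D2:**
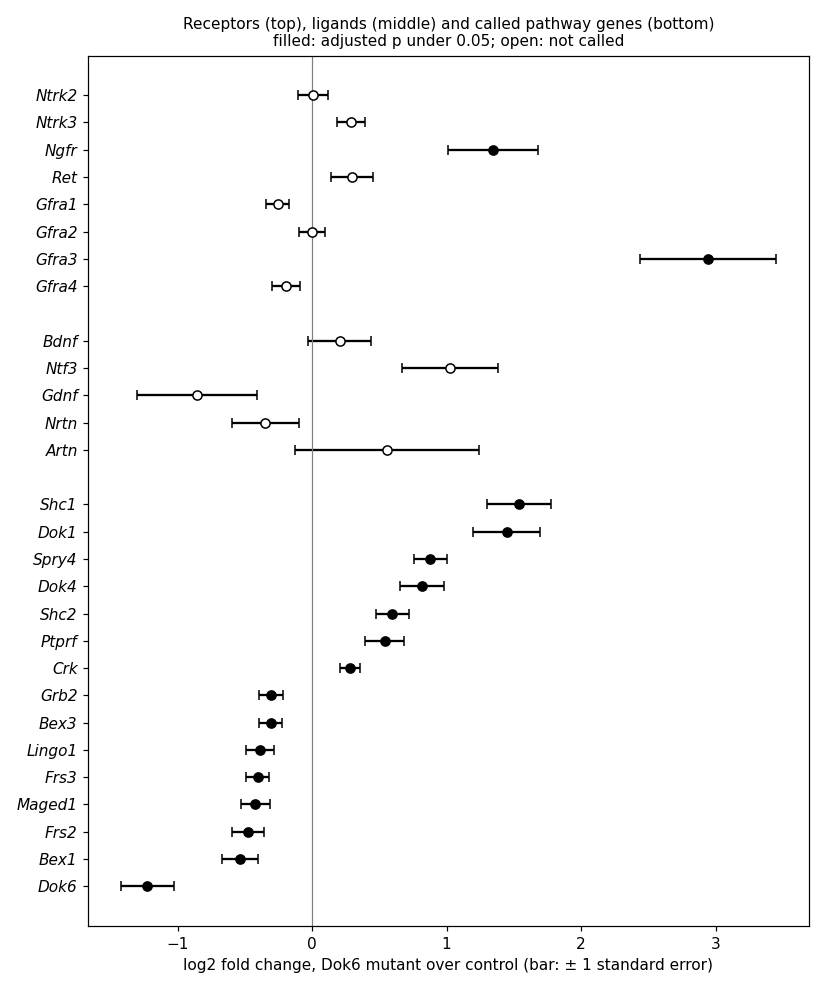
Log2 fold change of Dok6 mutant over control libraries (horizontal axis) with 1 standard error, for the 8 receptor genes, 5 of the 6 ligand genes tested and 15 called genes of the other pathway lists. Filled points had an adjusted p under 0.05 in edgeR's quasi-likelihood test, and Gfra3 lies past a log2 fold change of 2.

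Levels can be compared between genes only per length, so CPM were divided by the deposited gene length in kb. In the control libraries, Ret was at 29.5 ± 3.76 CPM per kb, Gfra1 at 28.8 ± 1.27, Ntrk2 at 28.1 ± 2.57 and Gfra2 at 25.1 ± 1.73 (SD, n = 3 mice). Each of these overlapped the next gene in this order over the 3 mice. Ngfr, at 18.2 ± 5.65 CPM per kb, overlapped Gfra2 and Gfra4, the latter at 15.0 ± 1.48. Ntrk3, at 5.06 ± 0.558, and Gfra3, at 0.815 ± 0.383, were apart from the others and from each other. In the mutant libraries Ngfr had the highest mean, at 46.3 ± 19.4 CPM per kb, followed by Ret, at 36.2 ± 7.30. In mutant mouse 1, however, Ngfr, at 24.0, was below Ntrk2 (31.8) and Ret (27.7). Over the mutants Ngfr overlapped Ret, Ntrk2, Gfra1 and Gfra2. Gfra3 and Ntrk3, at 6.29 ± 3.20 and 6.19 ± 0.562 CPM per kb, overlapped there. For 7 of the 8 receptor genes, all but Gfra3 (1992 against 1997 bases), the deposited length equalled the merged exons of all transcripts in GENCODE M21. This makes the value of Ntrk3, with 30170 bases, low if short transcripts prevail.

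**Figure D3:**
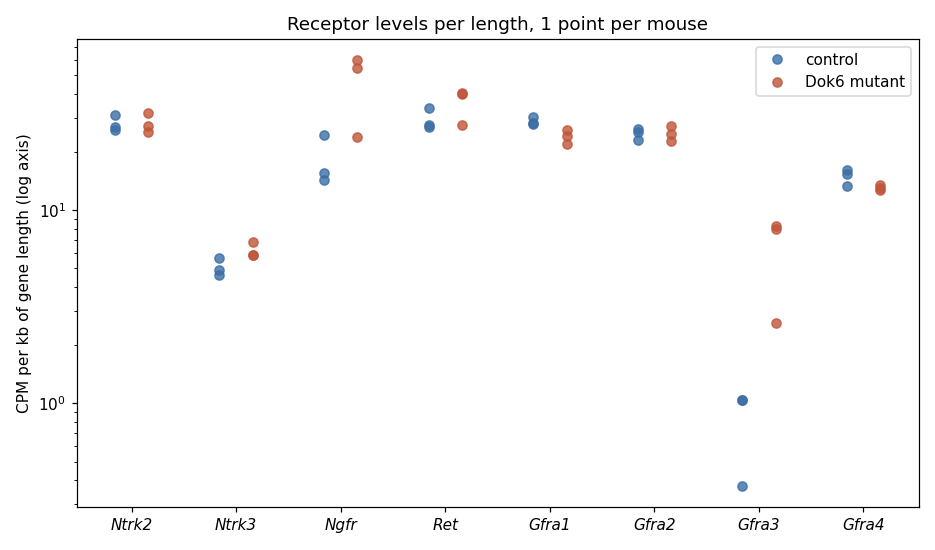
CPM per kb of deposited gene length (vertical log axis) for the 8 receptor genes, with 1 point per mouse, control in blue and Dok6 mutant in red. In the controls Ret, Gfra1, Ntrk2 and Gfra2 lie between 23.2 and 33.8 CPM per kb, and Gfra3 is the lowest of the 8 receptor genes, at 1.04 or less.

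On the same scale, the makeup of the GFRα family differed in its smallest part. Gfra3 gave 1.53%, 1.44% and 0.538% of the summed GFRα level in control mice 1, 2 and 3 and 4.26%, 11.4% and 11.1% in mutant mice 1, 2 and 3. Gfra1 gave 41.4% ± 2.87 in control and 35.2% ± 0.867 in mutant libraries (SD, n = 3 mice), and the share of Gfra2 was 35.9% ± 1.56 and 36.5% ± 0.985. With 3 mice in each genotype, an exact permutation test of one such share cannot give a two-sided p below 0.10, and these shares were not tested.

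The ligand genes were at low levels, and none of the 6 that passed the filter was called by edgeR, DESeq2 or limma voom, with 1 higher at an unadjusted p under 0.05 in the edgeR test. Bdnf was the highest, at 6.37, 8.03 and 11.2 CPM in control mice 1, 2 and 3 and at 7.68, 11.1 and 10.7 in the mutants, with overlapping genotypes. Ntf3, which encodes the TrkC ligand neurotrophin 3, was at 1.49, 1.72 and 0.915 CPM in the controls and at 1.87, 2.78 and 3.76 in the mutants. Every mutant was above every control for Ntf3, and its log2 fold change of 1.02 (standard error 0.36) did not pass in edgeR's quasi-likelihood test (adjusted p = 0.0858). For Gdnf the log2 fold change was -0.86 ± 0.45 (standard error), with an adjusted p of 0.215 in edgeR's quasi-likelihood test. For Artn, the GFRα3 ligand gene, it was 0.56 ± 0.68, with an adjusted p of 0.601 in the same edgeR test. Nrtn, the neurturin gene, had a log2 fold change of -0.35. Ntf5 and Pspn did not pass the filter, with 1 to 6 and 1 to 15 counts per library.

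Of the 71 genes on the lists of ligands, other receptors, adaptors, p75 partners and feedback regulators, 67 were tested, and 8 were called higher and 8 lower. This is 23.9% of those tested, beside 14.6% of all genes, and their median log2 fold change of 0.03 was near the 0.01 of all genes. Among 26 adaptor genes, 5 were called higher and 4 lower. Shc1 and Shc2, whose products dock on phosphorylated Trk and Ret receptors, had log2 fold changes of 1.54 (standard error 0.24) and 0.60 (standard error 0.12), and Dok1 and Dok4, of the same family as Dok6, of 1.45 (standard error 0.25) and 0.82 (standard error 0.17). Their adjusted p-values in edgeR's quasi-likelihood test lay between 0.0108 and 0.0207. Lower were Dok6 itself, Frs2 and Frs3, whose products compete with Shc for Trk receptors, at -0.48 (standard error 0.12) and -0.41 (standard error 0.09), and Grb2, the link to Ras, at -0.31 (standard error 0.09). The adjusted p of Grb2 in edgeR's quasi-likelihood test was 0.0487.

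Of 10 tested genes for intracellular partners of p75, none was called higher (1 at an unadjusted p under 0.05 in the edgeR test, 0 with DESeq2 and with limma voom) and 3 were called lower, Maged1, Bex1 and Bex3, with log2 fold changes of -0.42, -0.54 and -0.31 (standard errors 0.11, 0.13 and 0.08). Ngfr itself was higher. Among the feedback regulators, Spry4, a Sprouty inhibitor of receptor tyrosine kinase signaling, was called higher with a log2 fold change of 0.88 ± 0.12 (standard error), as was Ptprf, a receptor phosphatase gene, at 0.54 ± 0.14. The other 13 of 15 were not called. Lingo1, which encodes a partner of p75 in the Nogo receptor complex, was called lower, at -0.39 (standard error 0.10, adjusted p = 0.0414 in edgeR's quasi-likelihood test). Without control mouse 2, only 1 of these pathway genes was called higher and 1 lower. The number called lower was 2 without control mouse 1, 5 without control mouse 3 and 1 without mutant mouse 1 or 2, and the number called higher was 4 without mutant mouse 2.

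The patterns of the receptor genes across libraries were compared with those of all other genes. By the mean absolute difference in centred log2 CPM over the 6 libraries, the closest of 14432 genes to Ngfr was Prph (0.08), the gene of the intermediate filament peripherin of peripheral neurons, followed by Abca8b (0.13) and Isl1 (0.15). Prph was at 166, 116 and 125 CPM in control mice 1, 2 and 3 and at 182, 418 and 439 in mutant mice 1, 2 and 3. The ratio of Ngfr to Prph stayed between 0.397 and 0.514 in all 6 libraries. Prph was picked as the closest gene on these same values, so a narrow ratio follows from that choice. The closest genes to Ret were Chst8 (0.05), Hspa12a (0.06) and Ahr (0.06), to Ntrk3 Mcm3ap and Camkk2 (each 0.03), and to Ntrk2 Tbc1d2b, Stk17b and Itm2c (0.02 to 0.03). For Gfra1 they were Ube2o, Tmem178b and Tmem234, for Gfra2 Rtn4 and Sae1, and for Gfra4 Zswim1, Enho and Paip1, all within 0.03. For genes that hardly vary, a small difference is shared by many genes. Gfra3 was under 1 CPM in control mouse 3 and was not compared in this way.

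Of 15 sensory neuron markers, 10 were called higher and none lower in the edgeR test (none lower at an unadjusted p under 0.05, with DESeq2 or with limma voom), with a median log2 fold change of 2.15. DESeq2 called 11 of them higher and limma voom 8. Scn10a, a sodium channel gene of nociceptors, was at 3.10, 2.92 and 1.20 CPM in control mice 1, 2 and 3 and at 46.0, 167 and 133 in mutant mice 1, 2 and 3. Avil, a gene of peripheral sensory neurons, was at most 6.25 CPM in a control and at 28.0, 94.5 and 90.1 in mutant mice 1, 2 and 3. Mutant mouse 1 was the lowest mutant for Gfra3, Ngfr, Prph, Scn10a and Avil alike. The summed level of this list was between 2009 and 2137 CPM in control and between 1776 and 2814 CPM in mutant libraries. Tubb3, a neuronal tubulin gene that is not limited to sensory neurons, gave 1408, 1551 and 1548 CPM of it in control mice 1, 2 and 3 and 1071, 1111 and 1496 in mutant mice 1, 2 and 3. The log2 fold change of Gfra3, 2.94, lay between those of Prph (1.36) and Scn10a (5.58). The ratio of Gfra3 to Scn10a was 0.667, 0.706 and 0.619 in control mice 1, 2 and 3 and 0.113, 0.0954 and 0.124 in the mutants. The ratio of Ret to Scn10a was between 62.4 and 156 in the controls and between 1.62 and 4.08 in the mutants, and that of Ret to Prph was between 1.38 and 1.57 in the controls and between 0.627 and 1.03 in the mutants. The ratios were chosen after the values were seen and were not tested.

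Markers of other cells also differed between the libraries. The 15 Schwann cell markers summed to 1288, 1212 and 2993 CPM in control mice 1, 2 and 3 and to 2393, 7997 and 1307 in mutant mice 1, 2 and 3, with 6 called higher by edgeR, 5 by DESeq2 and 0 by limma voom. Mutant mouse 3, the highest for Ngfr, was thus among the lowest for Schwann cell genes. Sox10, a transcription factor gene of Schwann cells and oligodendrocytes, was at 63.4, 42.2 and 108 CPM in the controls and at 91.3, 144 and 49.4 in the mutants. The 14 skeletal muscle markers summed to at most 55.8 CPM in a control and to 754, 404 and 168 in mutant mice 1, 2 and 3, and 11 were called higher by edgeR, 11 by DESeq2 and 7 by limma voom. The 10 nerve fibroblast markers summed to 193 to 1098 CPM in control and 1987 to 2962 CPM in mutant libraries, and 4 were called higher by edgeR, 8 by DESeq2 and 7 by limma voom. None of the 12 central glia markers was called in the edgeR test (2 higher at an unadjusted p under 0.05, 1 called by DESeq2 and 0 by limma voom), and 3 of the 12 central neuron markers were called lower by edgeR, 5 by DESeq2 and 2 by limma voom. Among those called by edgeR was Slc32a1, with a log2 fold change of -0.32. The part of these differences in makeup in the levels of Gfra3 and Ngfr was not tested.

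**Figure D4:**
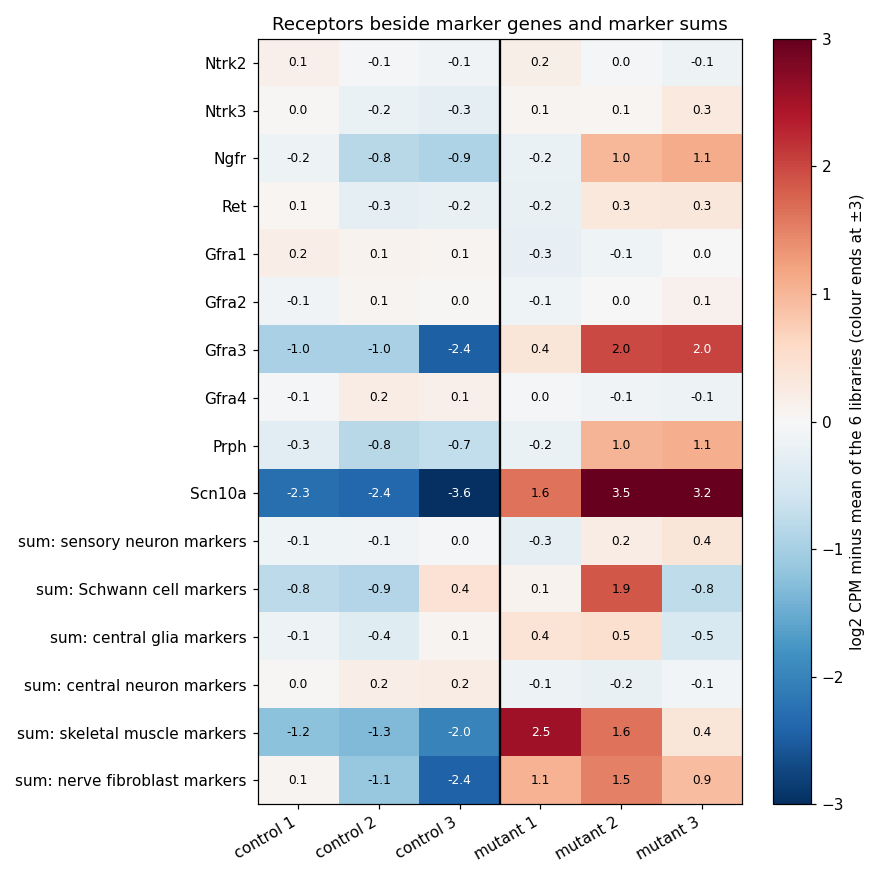
Log2 CPM minus the mean of the 6 libraries (colour and number) for the 8 receptor genes, 2 marker genes and the summed CPM of 6 marker lists, by library. Gfra3, Ngfr, Prph and Scn10a are highest in mutant mice 2 and 3, whereas the Schwann cell sum peaks in mutant mouse 2 and the muscle sum in mutant mouse 1.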

How the data were processed

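The authors deposited one RNA-seq table for the 6 libraries (3 per genotype, sciatic nerve), which holds raw counts per gene in one column per mouse, a gene length and a gene symbol. Columns were matched to samples by genotype and mouse number. Libraries were made with a NEBNext Ultra kit, which the methods call directional and the labels do not. The submitters' processing notes name mm10, and the aligner, the counting tool and the use of strand are not given in the sources used here. The deposited length equalled the exonic length in GENCODE M21 for 7 of the 8 members.

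Genotypes were compared by edgeR 4.0.16 under R 4.3.3 (filterByExpr by genotype, TMM, glmQLFit and glmQLFTest, all 6 libraries, no block), with Benjamini-Hochberg adjustment over the 17099 genes tested. The procedure was tested on simulated data. Standard errors were derived from the F statistic. The members and lists were chosen with earlier results of these data known. Named genes were the members, Dok6, the ligands, up to 4 called genes per other pathway list and direction, the 3 genes nearest in pattern to each member with at least 1 CPM in every library, and defining marker genes. Some genes that this rule names are not reported here, and the counts of lists include them. Alternatives were DESeq2 1.42.0, limma 3.58.1 (voom), RLE and upper-quartile scaling, other filters, a replicate block, other fold thresholds and leaving out each mouse. Overlaps came from GENCODE M21 and near-identical transcripts from BLAST 2.17.0 (95% identity over 200 bases). Libraries of one genotype differed by more than sampling noise (chi-square over its degrees of freedom at least 9.66), so each counted as 1 sample.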

Additional observations from a re-analysis of the deposited data

How the results depend on the processing

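Dok6 kept its direction and its call in all 13 alternative fits, and Ntrk3, Ret and Gfra4 kept their direction without being called in any. The log2 fold change of Gfra3 lay between 2.84 and 2.95 under the fits that kept every mouse. The sign of the smallest differences turned, for Ntrk2 to -0.0037 with DESeq2 and -0.0013 with RLE scaling and for Gfra2 to 0.0073 with at least 10 counts required in every library. Leaving out one mouse in turn moved the log2 fold change of Ntrk2 between -0.087 and 0.087, Ngfr between 1.11 and 1.66, Gfra1 between -0.32 and -0.20, Gfra2 between -0.073 and 0.060 and Gfra3 between 2.60 and 3.31. In these fits, 0 to 2 members were called higher and 0 to 1 lower, and 1 to 8 pathway genes were called higher and 1 to 8 lower. Over all genes, 1474 were called higher and 1028 lower, and 56 and 12 without control mouse 2, the largest loss.

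The mice share numbers in the labels, and deviations of same-numbered mice correlated at -0.01, -0.17 and -0.24. With 3 mice per genotype these values cannot exclude a pairing. The paper describes the controls as littermates, and the labels name no litter. With the replicate number as a block, 432 genes were called higher and 130 lower. The log2 fold change of Ngfr was then 1.30 (adjusted p = 0.101 in edgeR's test), and 1 member was called higher, with 3 pathway genes higher and 1 lower. With an absolute log2 fold change above 1, 3 pathway genes were called higher and 1 lower. Above 2, 1 member was called higher, with 1 pathway gene higher and 0 lower. Why these calls depend on the setting was not tested. At 13 to 36 counts per control library, Gfra3 has the least precise level of the members.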
